A study of Mus musculus with 6 samples.

Results

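The memory-phenotype surface genes and chemokines of CD8+ T cells were examined in mice whose immunoproteasome was replaced by the thymoproteasome. They are 10 genes chosen by symbol from the 78275 genes of the deposited table: *Cd44*, *Itga4* and *Itgb1* for adhesion receptors, *Ly6a*, *Ly6c1*, *Ly6c2* and *Ly6e* for Ly6 surface proteins, and *Ccl5*, *Ccl4* and *Xcl1* for chemokines. All 10 had counts in at least 5 of the 6 libraries, and 9 had enough counts to be tested. *Ly6c1* was the exception.

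RNA was sequenced from TCRβ-high CD4-CD8+ T cells of 3 WT mice and 3 BIT mice, 1 library per mouse, all C57BL/6, labelled male and 9 to 10 weeks old. BIT mice are homozygous for an allele in which *Psmb11*, encoding the thymoproteasome subunit β5t, was inserted at the start of *Psmb8*, encoding the immunoproteasome subunit β5i, so that every cell that would use *Psmb8* carries the change, not the T cells alone. The study made several BIT lines and documents mainly 1 of them; the labels do not say which line these mice came from. The labels give lymph nodes as the tissue, although their protocol also names spleens, and the cells were not sorted by any of the 10 members.

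CD8+ T cells that have never met antigen carry little CD44, whereas memory cells, and the virtual memory cells that arise without infection, carry more of it. CD44 binds hyaluronan, and the integrin of the α4 and β1 chains binds VCAM-1 and fibronectin, so that both hold cells on vessel walls and matrix. Ly6 proteins are small proteins anchored to the membrane by a lipid, several of them induced by interferon, and Ly6C is a usual mark of memory CD8+ T cells in this strain. Memory CD8+ T cells keep *Ccl5* mRNA ready for making the secreted protein, while *Ccl4* and *Xcl1* are made mainly after stimulation.

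The libraries held 37467678 to 52922675 estimated counts, so that a count of 0 allows a level of up to 0.0567 to 0.0801 CPM (counts scaled to the library total), a limit that covers counting error only. *Psmb8* had 10790, 10345 and 8024 counts in WT and 73, 59 and 60 in BIT, and *Psmb11* had 0 in all WT libraries and 1926, 1754 and 1226 in BIT, as the labels have it. The library labelled WT replicate 3 went against its label as male: *Xist* had 66626 counts there and 2 to 125 in the other libraries, and the sum of 4 Y-linked genes was 0 there and 8474 to 12329 elsewhere. On the first principal component (34.4% of the variance) WT replicate 3 lay at 54.6 and BIT replicate 3 at 28.6, with the other libraries between -36.5 and -3.31. Each member's difference is therefore also given without WT replicate 3, and within replicates 1 and 2 and replicate 3 separately. The replicate 3 difference sets 1 library against 1. BIT replicate 3 had 8949 Y-linked counts and WT replicate 3 had 0, so genotype and sex cannot be told apart in it. Whether replicate numbers pair the libraries could not be settled. Summed CD8 T cell markers (CD3 chains, CD8 chains and TCR constant genes) were at 4585 to 5028 CPM in WT and 4659 to 4958 CPM in BIT, and 4 CD4 T cell markers at 3.22 to 5.68 CPM over all libraries.

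Among the Ly6 members, *Ly6c1* and *Ly6c2* are near copies, which matters because a read that fits both is divided between them. Their coding sequences of 393 bases differ at 9 positions (97.7% identical) and share an unbroken run of 188 bases. The first 90 coding bases are shown, since 6 of the 9 differences lie there; capitals mark the bases that differ (Gencode M39 on GRCm39, both genes on the minus strand of chromosome 15).
Ly6c1: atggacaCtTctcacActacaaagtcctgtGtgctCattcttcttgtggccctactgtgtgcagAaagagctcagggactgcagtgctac
Ly6c2: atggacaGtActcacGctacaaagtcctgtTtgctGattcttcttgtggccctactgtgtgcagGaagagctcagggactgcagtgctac
Of the windows of 100 bases, the read length, in the transcripts of *Ly6c1*, 18.4% also occur in another gene, and of those of *Ly6c2* 18.7% occur in *Ly6c1*. *Ly6a* shares 6.15% of its windows, mostly with *Gm28068*, and the other 7 members share none. *Ly6a* is 81.8% identical to *Ly6c1* over the coding sequence and 81.6% to *Ly6c2*, whereas *Ly6e* is 44.5% to 47.2% identical to the other members.

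Per kilobase of the canonical transcript, the members ranged over more than 3 orders of magnitude. The mean WT level was 413 CPM per kilobase for *Ly6c2*, 366 for *Ly6e* and 211 for *Ccl5*, followed by 56.7 for *Itga4*, 27.0 for *Itgb1*, 22.7 for *Xcl1*, 10.8 for *Cd44*, 5.46 for *Ly6a*, 3.89 for *Ccl4* and 0.172 for *Ly6c1*. In BIT the means were 601, 386, 207, 44.8, 32.3, 16.5, 14.7, 7.43, 3.37 and 0.0509 in the same order. The SD over mice was 152 CPM per kilobase for *Ccl5* in WT and 151 for *Ly6c2* in BIT, so that the order of the leading 3 was not separated in every library. Neighbours in the order from *Itgb1* down to *Ccl4* also overlapped over the libraries. In CPM per kilobase *Itgb1* was between 24.0 and 35.1, *Xcl1* between 14.8 and 30.3 and *Cd44* between 9.27 and 16.9. *Ly6a* was between 3.28 and 11.5 and *Ccl4* between 2.18 and 5.50. The order rests on the transcript chosen: over all exons of the gene, *Ly6c2* was at 113 in WT, below *Ly6e* at 188.

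**Figure D1:**
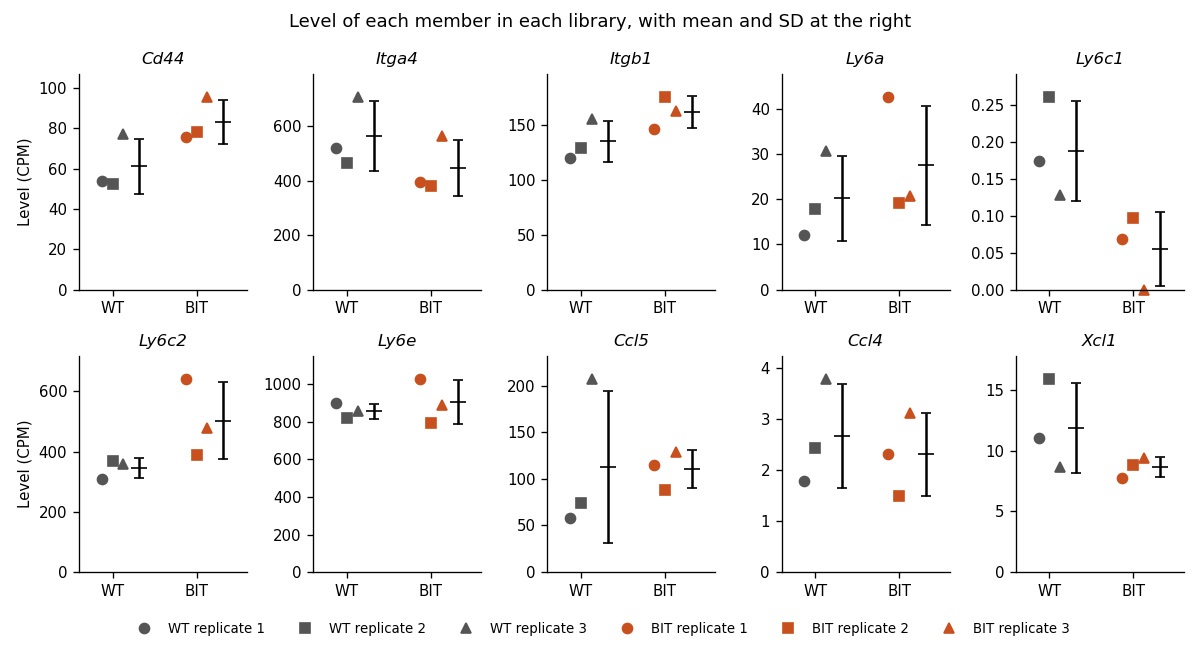
Level of the 10 members in CPM (y axes, each from 0) in the 3 WT and 3 BIT libraries (x axis). Points are single mice, with shapes for replicate numbers, and the bar at the right of each group is the mean ± SD (n = 3). *Cd44* in the BIT libraries sits at 75.8 to 95.6 CPM, *Ccl5* reaches 207 CPM in WT replicate 3, and *Ly6a* and *Ly6c2* are highest in BIT replicate 1.

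None of the members passed the test across all genes. The members of lowest p were *Cd44* (log2 fold change 0.40), *Ly6c2* (0.46) and *Itga4* (-0.40), and the levels of all 3 chemokines overlapped between the genotypes. The test was limma-voom over all 16105 genes with enough counts, of which 22 (0.137%) had a Benjamini-Hochberg adjusted p below 0.05, with 13 (0.0807%) higher and 9 (0.0559%) lower in BIT. The count among the 9 members tested was 0, and 2 members, *Cd44* and *Ly6c2*, had an unadjusted p below 0.05 and were higher in BIT, where 4.25% of all genes tested did so, and 0 were lower, where 4.32% did so. By another tool, edgeR, 0 members were called and 3 had an unadjusted p below 0.05. The share of all genes reaching that p with edgeR was not computed. Of the 9 members, 6 had a log2 fold change above 0, beside 52.3% of all genes tested, and their values ran from -0.42 for *Xcl1* to 0.48 for *Ly6a*. After quantile normalization every BIT library lay above every WT library for 1 member tested, *Cd44* (7.38% of all genes tested), and below for 0 (5.96%). In CPM, as plotted by library, *Cd44* overlapped instead, *Ly6c2* lay higher in every BIT library and *Ly6c1*, at 0 to 13.2 estimated counts, lower. The share of all genes without overlap on that scale was not computed, so these positions have no background to be read against. With 3 mice against 3, an exact permutation test, two-sided, cannot give a p below 0.1. A bulk level cannot tell fewer cells of a type from less RNA per cell, and this holds for each member.

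**Figure D2:**
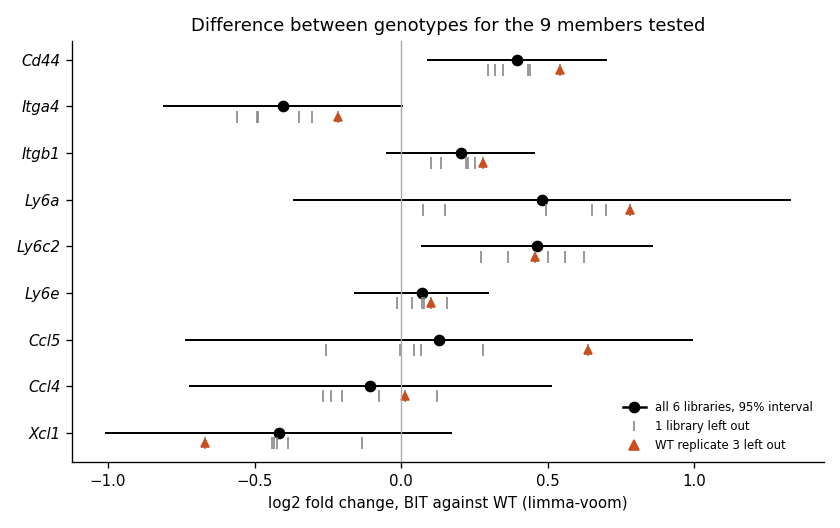
log2 fold change of BIT against WT for the 9 members tested (x axis), with the 95% interval from limma-voom as a line. Grey ticks are the same value with 1 library left out in turn, and triangles the value without WT replicate 3. The interval of *Cd44* (0.09 to 0.70) and that of *Ly6c2* (0.07 to 0.85) lie above 0, and *Ccl5* moves from 0.13 to 0.64 without WT replicate 3.

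*Cd44* (chr2:102641486-102732010, minus strand) encodes the hyaluronan receptor that defines memory-phenotype CD8+ T cells by flow cytometry. It had 53.7, 52.4 and 77.0 CPM in WT and 75.8, 78.0 and 95.6 CPM in BIT. Replicates 1 and 2 of BIT were thus at the level of WT replicate 3, the highest WT library. After quantile normalization the groups no longer overlapped, with WT at 5.75, 5.84 and 6.24 log2 CPM and BIT at 6.27, 6.25 and 6.49. The log2 fold change was 0.40 (SE 0.134, 95% interval 0.09 to 0.70), with an unadjusted p of 0.0164, an adjusted p of 0.531 and an exact permutation p of 0.1. Without WT replicate 3 it was 0.54 (limma adjusted p = 0.123). Without BIT replicate 1 or 2 it was 0.43 and 0.44, with unadjusted limma p of 0.0229 and 0.0251. It was 0.30 without WT replicate 1, 0.35 without WT replicate 2 and 0.32 without BIT replicate 3. The unadjusted limma p was then 0.0731, 0.0555 and 0.0540. Replicates 1 and 2 differed by 0.46 and replicate 3 by 0.25 on the log2 scale.

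*Itga4* (chr2:79085660-79163467, plus strand) encodes the integrin chain α4, which pairs with β1 or β7. It went the other way from *Cd44*, at 520.9, 464 and 708 CPM in WT and 396, 378 and 563 CPM in BIT. Replicate 3 was the highest of its genotype in both groups, and BIT replicate 3 lay above WT replicates 1 and 2, so that the groups overlapped. The log2 fold change was -0.40 (SE 0.179, 95% interval -0.81 to 0.0036), with an adjusted p of 0.586 by limma and an exact permutation p of 0.3. Without WT replicate 3 it was -0.21. Within replicates 1 and 2 the difference was -0.36 and in replicate 3 it was -0.48. Where replicate 3 was given a term of its own in the fit, the value was again -0.40, with an adjusted p of 0.0593, the lowest of any alternative for a member; *Cd44* had 0.0808 there.

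*Itgb1* (chr8:129411876-129460618, plus strand) encodes the chain β1, the partner of α4 in the receptor for VCAM-1. Its levels were 120.2, 129.5 and 156 CPM in WT and 147, 176 and 163 CPM in BIT. BIT replicate 1 lay below WT replicate 3, and the log2 fold change was 0.20 (SE 0.110, adjusted p = 0.651 by limma). It was 0.28 without WT replicate 3 and 0.10 without WT replicate 1. Replicates 1 and 2 differed by 0.30, and the replicate 3 libraries by 0.0032.

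Ratios of 2 members within a library were taken on quantile-normalized log2 CPM. A ratio of the counts themselves, with 0.5 added, does not depend on the library total. From counts, BIT differed from WT by 0.80 for *Cd44* to *Itga4* and by -0.60 for *Itga4* to *Itgb1*. Of the 6 ratios set, *Ly6c2* to *Ly6c1* could not be formed since *Ly6c1* was not tested, and the p-values of the other 5 were adjusted together. The log2 ratio of *Cd44* to *Itga4* was -3.24, -3.10 and -3.30 in WT and -2.39, -2.30 and -2.57 in BIT. The groups were separate, with means of -3.21 ± 0.0987 and -2.42 ± 0.134 (SD, n = 3), and differed by 0.79 (exact permutation p = 0.1, the smallest possible, and 0.25 after adjustment). With any 1 library left out the difference stayed between 0.74 and 0.87, and without WT replicate 3 it was 0.75. The ratio of *Itga4* to *Itgb1* was 2.09, 1.79 and 2.28 in WT and 1.44, 1.11 and 1.79 in BIT, a difference of -0.60 (exact permutation p = 0.1, adjusted 0.25), and -0.49 without WT replicate 3. All BIT libraries were below all WT libraries, though WT replicate 2 and BIT replicate 3 lay side by side. The share of gene pairs whose ratio separates the groups was not computed, so neither separation has a background. In both pairs the 2 genes differed with opposite signs, so that each ratio holds both differences at once.

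**Figure D3:**
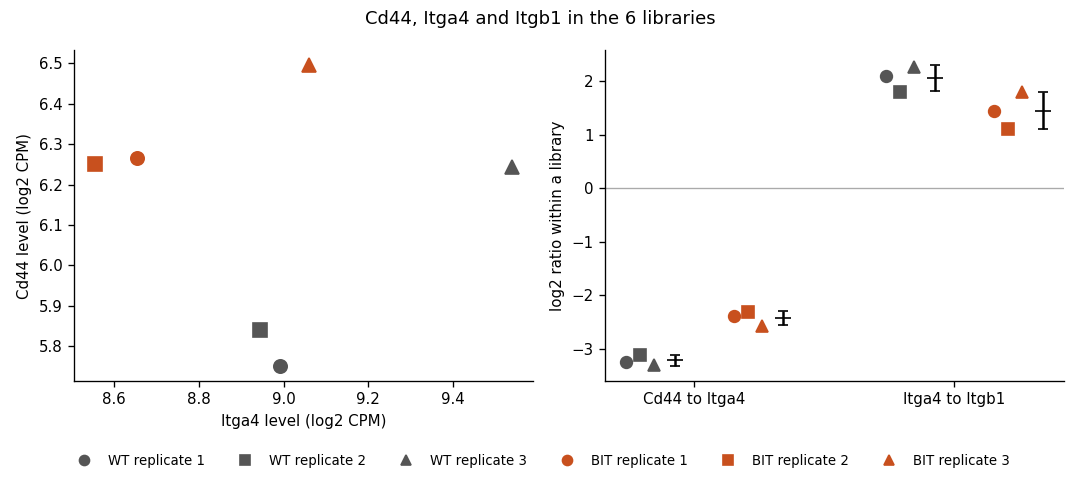
Left, *Cd44* against *Itga4* in log2 CPM after quantile normalization in each of the 6 libraries. Right, log2 ratios within a library after the same normalization, with mean ± SD (n = 3) at the right of each group. The ratio of *Cd44* to *Itga4* is between -3.30 and -3.10 in the WT libraries and between -2.57 and -2.30 in the BIT libraries.

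Among the 26 integrin chain genes *Itga4* took 22.1% to 26.3% of the counts in WT and 15.5% to 22.9% in BIT. *Itgb1* took 5.21% to 6.17% and 6.63% to 7.23%, without overlap, a position for which no background was computed. A lower share of *Itga4* raises the shares of the other chains, and the level of *Itgb1* in CPM overlapped between the groups. *Itgb7*, the other partner of α4, was at 333 to 384 CPM in WT and 364 to 455 CPM in BIT (log2 fold change 0.05, limma adjusted p = 0.909). Of the 20 integrin chains tested, 0 had an adjusted p below 0.05. At an unadjusted p below 0.05, 1 was lower in BIT, beside 4.32% of all genes tested. This was *Itgae*, encoding the CD103 chain that binds E-cadherin, at 164, 145 and 124 CPM in WT and 116, 99.3 and 98.7 CPM in BIT (log2 fold change -0.53, limma adjusted p = 0.372). Every BIT library was below every WT library for it, as for 5.96% of all genes tested. The median log2 fold change of the integrin chains was -0.02, beside 0.01 over all genes tested.

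Of 18 genes that link integrins and CD44 to the cytoskeleton, 15 were tested and 0 passed the adjusted test. At an unadjusted p below 0.05 there were 3, all higher in BIT, beside 4.25% of all genes tested. They were the focal adhesion kinase gene *Ptk2* (log2 fold change 0.43), its relative *Ptk2b* (0.23) and the talin gene *Tln2* (1.28), with limma adjusted p of 0.531, 0.526 and 0.434; *Tln2* was low, at 0.321 to 0.784 CPM. The ezrin, radixin and moesin genes, whose products tie CD44 to actin, had log2 fold changes of -0.03 for *Ezr*, 0.03 for *Rdx* and 0.20 for *Msn*. Of the 7 genes for ligands, or for enzymes that make hyaluronan, 2 were tested and 0 passed. *Vcam1*, the ligand of the α4 and β1 pair and a gene of stromal cells and macrophages, was at 8.56, 10.8 and 8.49 CPM in WT and 4.2, 5.42 and 7.13 CPM in BIT (log2 fold change -0.73, limma adjusted p = 0.435). Stromal and endothelial markers, summed over 8 genes, were at 1.25 to 1.35 CPM in WT and 0.536 to 0.988 CPM in BIT, and their part in the *Vcam1* values was not tested.

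*Ly6c2* (chr15:74980003-74988467, minus strand) encodes the Ly6C protein of T cells and monocytes in this strain. It had 309, 369 and 358 CPM in WT and 640.0, 389.8 and 479 CPM in BIT. All BIT libraries were above all WT libraries on this scale, but after quantile normalization BIT replicate 2, at 8.6 log2 CPM, fell below WT replicate 2, at 8.66. The log2 fold change was 0.46 (SE 0.173, 95% interval 0.07 to 0.85), with an unadjusted p of 0.0260, an adjusted p of 0.546 by limma and an exact permutation p of 0.2. It was 0.46 without WT replicate 3 and 0.27 without BIT replicate 1, the highest library. Replicates 1 and 2 differed by 0.49 and replicate 3 by 0.41.

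*Ly6c1* (chr15:74915847-74920686, minus strand) was estimated at 9.20, 13.2 and 5.10 counts in WT and 3.08, 4.09 and 0 in BIT, which is at most 0.0706% of the counts of *Ly6c1* and *Ly6c2* together. In BIT replicate 3 both genes had whole counts, and in the other 5 libraries neither did, although the sum of the pair was whole within 0.01. At these counts a difference in *Ly6c1* itself cannot be read from the table. Adding both genes together gave a log2 fold change of 0.46, with an adjusted p of 0.542 by limma. The other 8 members had whole counts in all libraries.

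*Ly6a* (chr15:74863840-74869880, minus strand), encoding Sca-1, the Ly6 protein best known from blood stem cells and also found on activated and memory T cells, had the widest range of the 3 Ly6 members tested. It was at 12.2, 17.8 and 30.7 CPM in WT and 42.8, 19.1 and 20.8 CPM in BIT. The highest library held 3.52 times the lowest, and WT replicate 3 lay above BIT replicates 2 and 3. This gave a log2 fold change of 0.48 (SE 0.372, 95% interval -0.37 to 1.33, limma adjusted p = 0.743), 0.07 without BIT replicate 1 and 0.78 without WT replicate 3. The difference was 0.93 in replicates 1 and 2 and -0.58 in replicate 3.

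*Ly6e* (chr15:74826860-74847454, plus strand), which encodes an interferon-induced Ly6 protein present on most leukocytes, had the smallest range of the 9 members tested. Its levels were 898, 818 and 855 CPM in WT and 1026, 794 and 891 CPM in BIT, with the highest 1.29 times the lowest. BIT differed from WT by a log2 fold change of 0.07 (SE 0.10, 95% interval -0.16 to 0.30, limma adjusted p = 0.865), and it was 0.10 without WT replicate 3. Replicates 1 and 2 differed by 0.10 and replicate 3 by 0.0056.

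Of the counts of 19 genes of the Ly6 cluster, *Ly6e* took 67.4% to 73.3% in WT and 59.8% to 65.7% in BIT, and *Ly6c2* took 25.3% to 30.5% and 32.2% to 37.3%. Neither share overlapped between the groups, but the pair makes up nearly all of these counts, so that the shares mirror each other and the lower share of *Ly6e* is no separate difference. No background was computed for these positions. *Ly6a* took 0.993% to 2.46% in WT and 1.49% to 2.49% in BIT. Of the 19 genes, 9 had 0 counts in all libraries, 6 were tested and 1, *Ly6c2*, had an unadjusted p below 0.05. The log2 ratio of *Ly6c2* to *Ly6a* differed by 0.03 between the groups (exact permutation p = 1.0), and by -0.30 without WT replicate 3.

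BIT replicate 1 was the highest library for all 3 Ly6 members tested, and it was also the highest for 14 of 16 interferon response genes. Their summed level was 1990.1 CPM in BIT replicate 1 and 1221 to 1475 CPM in the other 5 libraries. *Ifit3*, an antiviral gene induced by interferon, was at 27.8, 59.3 and 33.1 CPM in WT and 116, 39.7 and 23.2 CPM in BIT. Between the genotypes 0 of the 16 interferon genes had an unadjusted p below 0.05, 13 had a log2 fold change above 0, and their median was 0.16. The part of these genes in the Ly6 values was not tested. Without BIT replicate 1 the log2 fold changes were 0.07 for *Ly6a*, 0.27 for *Ly6c2* and -0.015 for *Ly6e*.

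**Figure D4:**
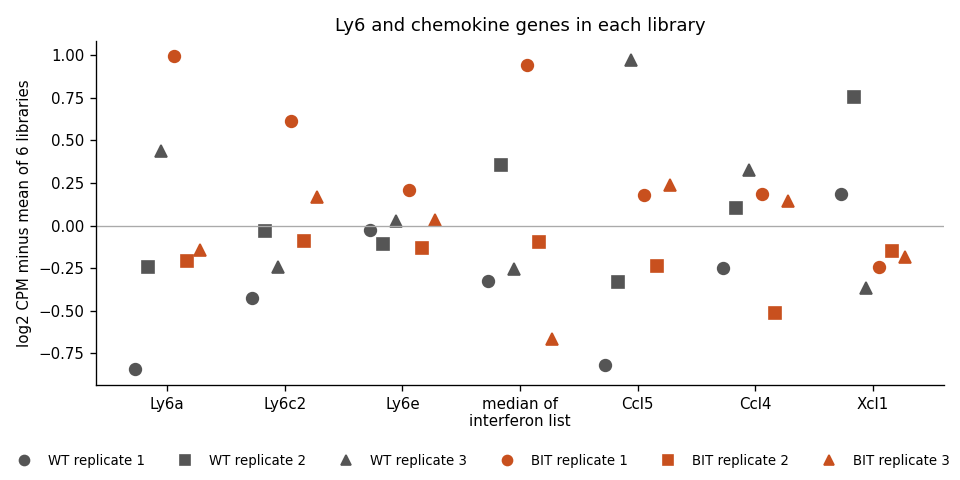
Each library's log2 CPM after quantile normalization minus the mean of the 6 libraries (y axis) for *Ly6a*, *Ly6c2*, *Ly6e*, the median of 16 interferon genes, *Ccl5*, *Ccl4* and *Xcl1* (x axis). BIT replicate 1 is highest in the first 4 columns, at 0.99 for *Ly6a* and 0.94 for the interferon median, and WT replicate 3 is highest for *Ccl5* and *Ccl4*.

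*Ccl5* (chr11:83416602-83425942, minus strand), encoding RANTES, which attracts T cells and monocytes, was the chemokine with the most counts. It was at 57.9, 74.5 and 207 CPM in WT and 115, 87.8 and 128 CPM in BIT. The WT libraries thus held both the lowest and the highest value, 3.57 times apart, while all BIT values lay between them. The log2 fold change was 0.13 (SE 0.380, 95% interval -0.73 to 0.99, limma adjusted p = 0.941). It was 0.64 without WT replicate 3, with an unadjusted p of 0.0053 and an adjusted p of 0.274 by limma, and it was -0.26 without WT replicate 1. The difference was 0.55 in replicates 1 and 2 and -0.73 in replicate 3, where the sign was opposite.

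*Ccl4* (chr11:83553383-83555509, plus strand), encoding MIP-1β, made on activation, was low in all libraries. It had 95, 123 and 151 counts in WT and 104, 63 and 117 in BIT, or 1.80, 2.43 and 3.78 CPM and 2.32, 1.5 and 3.12 CPM. The groups overlapped, with a log2 fold change of -0.10 (SE 0.272, 95% interval -0.72 to 0.51, limma adjusted p = 0.933) and of 0.01 without WT replicate 3. The difference was -0.09 in replicates 1 and 2 and -0.19 in replicate 3.

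*Xcl1* (chr1:164759213-164763096, minus strand), encoding lymphotactin, which calls in cross-presenting dendritic cells that carry XCR1, was at 11, 15.9 and 8.66 CPM in WT and 7.75, 8.80 and 9.39 CPM in BIT. The BIT libraries were close together, and WT replicate 3 lay among them. The log2 fold change was -0.42 (SE 0.259, 95% interval -1.01 to 0.17, limma adjusted p = 0.687), -0.67 without WT replicate 3 and -0.13 without WT replicate 2. The difference was -0.66 in replicates 1 and 2 and 0.18 in replicate 3. The log2 ratio of *Xcl1* to *Ccl5* differed by -0.50 (exact permutation p = 0.5) and that of *Ccl4* to *Ccl5* by -0.24 (exact permutation p = 0.5), both 0.625 after adjustment over the 5 ratios. Single WT libraries set the size of both. With WT replicate 1, 2 or 3 left out in turn, *Xcl1* to *Ccl5* differed by -0.13, -0.086 and -1.30, and *Ccl4* to *Ccl5* by -0.016, -0.084 and -0.62. From counts with 0.5 added, over all libraries, *Xcl1* to *Ccl5* differed by -0.59 and *Ccl4* to *Ccl5* by -0.38.

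Of the counts of 38 chemokine genes *Ccl5* took 66.7%, 67.6% and 84.4% in the WT libraries and 79.6% to 83.9% in the BIT libraries, and *Xcl1* took 3.54% to 14.2% and 5.65% to 8.08%. *Ccl25*, a chemokine of thymus and gut epithelium, took 4.59% to 10.3% over all libraries, more than *Xcl1* in both replicate 3 libraries, and *Ccl4* took 1.38% to 2.18%. In Gencode M39 the *Ccl25* gene has 33 transcripts and 12537 exon bases, against 902 in its canonical transcript. Where its reads lie was not examined, so its share need not be chemokine mRNA. Of the 38 genes 15 had 0 counts throughout and 12 were tested, with 0 past the adjusted threshold. *Ccl5* was the 1 gene of the 12 with a log2 fold change above 0, and the median of the list was -0.39. *Cxcl16*, made mainly by antigen-presenting cells, had an unadjusted p below 0.05, with 31, 41 and 31 counts in WT and 12, 8 and 10 in BIT (log2 fold change -1.28, limma adjusted p = 0.503).

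**Figure D5:**
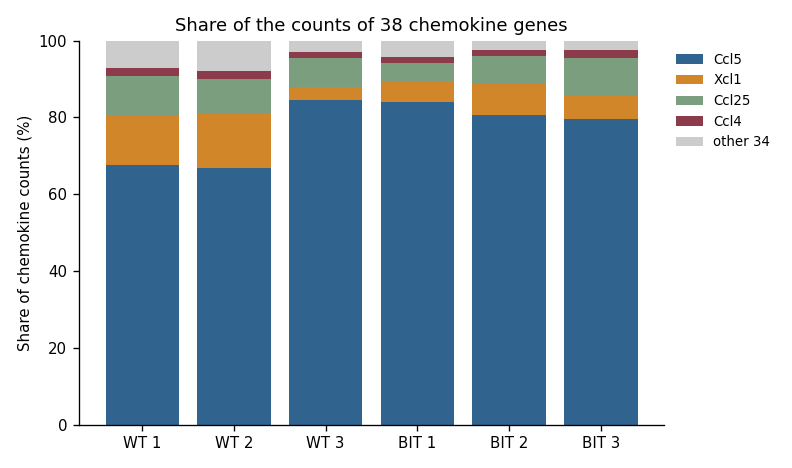
Share of the counts of 38 chemokine genes (y axis, in percent) taken by *Ccl5*, *Xcl1*, *Ccl25*, *Ccl4* and the remaining genes in each library (x axis). *Ccl5* takes 66.7% to 67.6% in WT replicates 1 and 2 and 79.6% to 84.4% in the other 4 libraries.

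In WT replicate 3 the markers of dendritic cells, 6 genes, summed to 28.1 CPM, beside 5.26 to 10.3 CPM in the other libraries, mostly from *Itgax*, at 20.6 CPM there and 2.91 to 6.03 CPM elsewhere. Genes of effector and memory T cells and NK cells that were also highest in WT replicate 3 were *Klrk1* (21.9 CPM), *Klrc1* (17.7 CPM) and *Gzmk* (12.3 CPM), which reached 11.3, 9.23 and 3.33 CPM at most in the other libraries. They are part of a list of 12 memory-phenotype genes taken up below, of which *Gzmm* and *Cd38* were also highest there. The rest of that list was not: *Klrd1* was highest in WT replicate 2, and *Il2rb*, *Eomes*, *Tbx21*, *Cxcr3*, *Il18r1* and *Nkg7* in BIT libraries. None of the 6 dendritic cell markers was at 0 in all libraries. Markers of NK cells, 6 genes, summed to 4.59 to 6.06 CPM in WT and 4.48 to 5.39 CPM in BIT, and markers of γδ T cells, 5 genes, to 7.05 to 8.36 and 6.54 to 8.36 CPM. Myeloid markers, 8 genes, summed to 10.3 to 18.6 CPM in WT and to 8.54 to 11.4 CPM in BIT. The sum was highest in WT replicate 3, where *Itgam* was at 4.93 CPM (0.964 to 1.39 CPM elsewhere), whereas *Lyz2*, *Csf1r* and *Adgre1* were highest in WT replicate 2, at 6.11, 5.56 and 1.72 CPM. The part of these cells in the *Ccl5* values was not tested. Markers of B cells, 7 genes, summed to 336 to 359 CPM in WT and 328 to 364 CPM in BIT, mostly from *Ighm* (294 to 338 CPM), and platelet and red cell markers, 6 genes, to 2.61 to 15.1 and 5.77 to 44.9 CPM.

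The members were set beside other genes of memory-phenotype CD8+ T cells. Of 12 such genes, all tested, 2 had an adjusted p below 0.05 and both were higher in BIT, beside 0.0807% of all genes tested. They were *Il2rb*, encoding the receptor chain shared by IL-2 and IL-15 (log2 fold change 0.77, limma adjusted p = 0.0250), and *Il18r1*, encoding the IL-18 receptor (0.63, limma adjusted p = 0.0399). *Eomes*, the transcription factor of memory cells, differed by 0.69 (limma adjusted p = 0.112). In all, 6 genes were higher and 1 lower at an unadjusted p below 0.05, beside 4.25% and 4.32% of all genes tested. The lower gene was *Klrd1*, encoding the CD94 receptor chain of NK and memory T cells (log2 fold change -0.42, limma adjusted p = 0.486), at 54.9 to 64.1 CPM in WT and 40.2 to 48.8 CPM in BIT. Both calls were lost when any 1 library other than WT replicate 3 was left out: the adjusted p of *Il2rb* ran from 0.0141 to 0.244 and that of *Il18r1* from 0.0317 to 0.277 over the 6 fits, with log2 fold changes of 0.70 to 0.84 and 0.58 to 0.67. The median log2 fold change of the list was 0.23, beside 0.01 over all genes tested. Since this list was chosen with earlier results of these data known, its calls and its median are descriptions and no separate test. The summed level of the 12 genes was 678 to 905 CPM in WT and 1041 to 1156 CPM in BIT, of which *Il2rb* made up 203 to 273 and 393 to 456 CPM. Among 10 genes of naive T cells 0 had an adjusted p below 0.05 and 2 an unadjusted one, both higher in BIT. *Il7r*, encoding the IL-7 receptor chain that naive and memory cells share, differed by 0.54 (limma adjusted p = 0.154).

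For the 2 members with the widest range of levels, the genes with the most similar pattern over the 6 libraries were sought, as a description of these libraries. For *Ccl5* they were *Lilrb4b*, *Gm52950* and *Gm41396*, with Pearson r of 0.997, 0.985 and 0.981 over 6 libraries. *Lilrb4b*, encoding an inhibitory receptor of leukocytes, was at 0.283, 0.544 and 3.10 CPM in WT and 0.741, 0.485 and 1.13 CPM in BIT. For *Ly6a* they were *Gm13238*, *Gm10069* and *Gm48563*, with r of 0.984, 0.977 and 0.973.

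The promoters of the members, 250 bases before to 50 after a start in RefSeq on GRCm38.p6, were searched on both strands for 3 motifs: TTCNNNGAA, the letters of a site for STAT factors, AGGTGTGA, the letters of a site for T-box factors, and GAAA, any 2 bases and GAAA again, the letters of the interferon-stimulated response element. *Cd44*, *Itga4*, *Itgb1*, *Ly6c1*, *Ly6c2* and *Xcl1* had 8 windows in all, and none held a motif, while 8.30%, 1.28% and 3.44% of all 32851 windows did. *Ly6a*, *Ly6e*, *Ccl5* and *Ccl4* had no window to search. The windows of *Ly6c1* overlap each other, as do those of *Ly6c2*. With so few windows, the lack of a motif cannot be read against these percentages.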

How the data were processed

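The deposited values are RSEM estimated counts per gene, made by the authors with cutadapt 1.18 for trimming, STAR 2.7.0f for alignment to GRCm39 and RSEM 1.3.1 with Gencode M38 for counting, after ribosomal RNA removal and paired-end sequencing of 100 bases (versions from the submitters' processing notes). Of the values above 0, 84.8% were whole within 0.01. Estimated counts were rounded, and quantile-normalized values were fitted with limma 3.58.1 (voom, lmFit, eBayes) under R 4.3.3. The filter filterByExpr (edgeR 4.0.16, minimum count 10) kept 16105 genes. Tests were two-sided with Benjamini-Hochberg adjustment over all genes tested. CPM are counts scaled to the library total. Depth was 37467678 to 52922675 counts per library; 3 counts were taken as the limit that 0 allows. Values are relative, so a change shared by most genes cannot be seen.

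The members and the gene lists were chosen with earlier results of these data known. Text names all members and, of each list, at most the 3 genes of lowest unadjusted p below 0.05, plus genes that a member's result turns on. *Ifit3*, *Itgax*, *Itgb7*, *Ccl25*, the ezrin family, *Ighm*, *Klrk1*, *Klrc1*, *Gzmk*, *Klrd1* and single myeloid markers were added after their values were seen, to show how a list or partner stood beside a member. *Gzmm*, *Cd38*, *Tbx21*, *Cxcr3* and *Nkg7* were likewise named after their values were seen, to show which library was highest. Mean ± SD is over mice. As alternatives, DESeq2 1.42.0, the quasi-likelihood test of edgeR, TMM scaling, weights for sample quality, no filter or one at a mean of 1 CPM, a replicate block, replicate 3 as a batch, replicates 1 and 2 alone, each library left out, and *Ly6c1* and *Ly6c2* added together were run. The fitting script was tested on simulated counts. Groups came from the sample titles. Positions and transcripts are from Gencode M39 on GRCm39, which holds 78263 of the 78275 identifiers, and promoters from RefSeq. Identity between Ly6 members was computed on coding bases because protein sequences were not used here, and the cysteine pattern of the chemokines was not analysed here. *Ly6a2*, whose symbol stands for more than 1 row, and *Tcrg-C4* were left out of their lists. Some listed genes are not reported here.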

Additional observations from a re-analysis of the deposited data

How the results depend on the processing

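In every alternative, 0 of the members were called at an adjusted p below 0.05. The number of called genes, 22, was 14 with edgeR, 125 with DESeq2, 42 with replicate 3 as a batch, 71 with replicates 1 and 2 alone, and 1 (without WT replicate 1) to 37 (without WT replicate 3) with 1 library left out. The share of all genes with an unadjusted p below 0.05 was not computed for the alternatives. The counts of members at that p that follow therefore have no background and are descriptions only. Members with an unadjusted p below 0.05 and higher in BIT, 2, were 4 with quality weights, 4 with replicates 1 and 2 alone and 0 to 4 with 1 library left out. Those lower in BIT, 0, were 1 with TMM, DESeq2, no filter or replicate 3 as a batch, 2 with quality weights or replicates 1 and 2 alone, and 0 to 1 with 1 library left out. With the replicate number as a block, 21 genes were called and 3 members were higher and 2 lower at an unadjusted p below 0.05. Whether the numbers pair the libraries could not be settled. Deviations of same-numbered libraries correlated at 0.139, 0.0255 and 0.332. WT replicates 1 and 3 correlated best with the BIT library of their own number, but WT replicate 2 with BIT replicate 1 (0.244). The direction turned for *Ccl5* with edgeR (log2 fold change -0.0028) and with 1 library left out (-0.26 to 0.64), for *Ccl4* (-0.27 to 0.12), for *Ly6e* (-0.015 to 0.16) and for the ratio of *Ly6c2* to *Ly6a* (-0.30 to 0.25); the cause was not tested. *Cd44*, *Itga4*, *Itgb1*, *Ly6a*, *Ly6c2* and *Xcl1* kept their direction in the 16 alternatives run for each.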
